A study of Homo sapiens with 4 samples.

Results

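Chromatin regions that were strongly accessible in BJ fibroblasts with or without ΔNp63α were described here. BJ is an established line of human foreskin fibroblasts, and ATAC-seq uses a transposase that cuts and tags DNA not covered by nucleosomes. All cells carried the reverse tetracycline transactivator and were kept in doxycycline, and the control group (CTR, 2 samples) expressed KLF4 alone while the p63 group (2 samples) expressed ΔNp63α together with KLF4. The controls are thus no untreated fibroblasts, since they express the reprogramming factor KLF4 too. Each replicate was a new induction of the same polyclonal lines. The labels name a single peak list for both samples of a group, and the methods state that peaks were called from both replicates. The peak names of each list carry 1 alignment made from a pair of inputs, and whether that pair is the replicates or the read mates of 1 library is not stated. The lists used here hold no value per replicate, so differences between the conditions were not tested.

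Members were chosen by measured values. A member is a CTR peak on chromosomes 1 to 22 or X with a −log10 q of at least 60 and a fold enrichment of at least 5 (pileup at the summit over the local background) that shares at least 1 bp with a p63 peak past the same thresholds. Of 100863 CTR peaks, 4207 met this rule, which is 4.17% of the list, and they covered 4.005 Mb. They are compared below with the other 43061 CTR regions that were open in both lists at a −log10 q of at least 10, called other shared regions. Of the 5102 CTR peaks past the thresholds, 82.5% were members, as against 63.9% of the 6586 such p63 peaks. The 895 CTR peaks past the thresholds that were no members all overlapped a p63 peak with a −log10 q of at least 10, with a median of 53.3 and a lowest value of 26.8.

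Accessible DNA of this kind comes in distinct classes. Promoters of genes that most cells use are often CpG islands, with binding sites for general activators such as NFY, ETS factors, NRF1, CREB and SP/KLF factors close to the transcription start site (TSS), and they stay open across cell types. Enhancers lie farther away, are poor in CpG and differ between cell types, and in fibroblasts many hold sites for AP-1, TEAD and RUNX factors. CTCF, which anchors chromatin loops, marks a further class, and p63 recognizes a long palindromic site of the p53 family.

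The members with the highest CTR −log10 q that carry each motif within 100 bp of their summit follow, so that the letters can be read beside the shares of each motif. For the p63 site, the member with the fewest mismatches was taken instead, with ties broken by CTR −log10 q. Each line is hg38 sequence on the strand of the motif, with the motif in capitals and 25 bp on either side. The choice was restricted to summits whose 31 bases occur once in chromosomes 1 to 22, X and Y, in windows without tandem repeats or exons. The promoter examples lie upstream of CREB3L2, a transcription factor of the secretory pathway (NFY, chr7:138002135-138002191, plus strand, and CRE, chr7:138002233-138002290, plus strand), of the kinase gene ULK4 (ETS, chr3:41962267-41962324, plus strand), of the RNA polymerase II subunit gene POLR2J3 (NRF1, chr7:102572682-102572739, plus strand) and of SIVA1, a regulator of apoptosis (GC box, chr14:104752833-104752890, minus strand). The distal examples lie in introns of TMEM219 (AP-1, chr16:29944146-29944202, minus strand), of PHF20, which encodes a chromatin reader (TEAD, chr20:35884125-35884181, minus strand), and of DST, which encodes a cytoskeletal linker (RUNX, chr6:56938755-56938811, minus strand). The p63 site lies in an intergenic member 7.721 kb from the TSS of LCA5 (chr6:79545223-79545292, plus strand), with 1 mismatch to the family site.
NFY at CREB3L2: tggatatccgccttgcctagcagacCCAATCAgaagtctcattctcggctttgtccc
CRE at CREB3L2: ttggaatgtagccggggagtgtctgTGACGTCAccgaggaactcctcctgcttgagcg
ETS at ULK4: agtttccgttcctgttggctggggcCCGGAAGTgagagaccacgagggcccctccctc
NRF1 at POLR2J3: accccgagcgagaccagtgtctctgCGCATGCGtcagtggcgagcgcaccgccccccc
GC box at SIVA1: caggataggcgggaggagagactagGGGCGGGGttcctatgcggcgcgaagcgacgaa
AP-1 in TMEM219: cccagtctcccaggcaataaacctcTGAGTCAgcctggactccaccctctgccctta
TEAD in PHF20: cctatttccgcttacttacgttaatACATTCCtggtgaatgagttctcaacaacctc
RUNX in DST: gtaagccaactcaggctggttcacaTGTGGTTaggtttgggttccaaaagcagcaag
p63 site near LCA5: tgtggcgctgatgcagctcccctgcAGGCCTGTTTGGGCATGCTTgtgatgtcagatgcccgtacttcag

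The values that chose the members are given as a description only. The CTR fold enrichment of the members had a median of 13.6 and ranged from 5.11 to 43.4, and the p63 fold enrichment had a median of 14.3 and ranged from 5.02 to 44.8. The median −log10 q of the members was 75.1 for CTR and 82.2 for p63. Just inside the CTR threshold lay regions 13.762 kb from the TSS of NGEF, a guanine exchange factor (60.0085), and 8.504 kb from that of RND3, which encodes a small GTPase (60.0138), and just outside lay the promoters of SLC25A23 (59.9896) and MECR (59.979). At the p63 threshold, a gene-body region 6.245 kb from SLC35E2B (60.013) and the promoter of LRFN4 (60.021) were just inside. A gene-body region 23.71 kb from TNFRSF11B (59.9925) and the promoter of APLF (59.9791) were just outside. The fold threshold removed 7 CTR peaks that passed both −log10 q thresholds, with the highest fold of these, 4.54, at the ribosomal RNA locus of chromosome 21 (MIR6724-3).

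The rule required high values in both lists and so fixed much of their likeness. The p63/CTR ratio of fold enrichment had a median of 1.05 among members and 1.03 among other shared regions, and these values are not scaled between the lists. Of the members, 90.02% had a ratio between 0.8 and 1.2, and the lowest and highest ratios were 0.653 and 1.48. The highest ratios belonged to a gene-body region 15.989 kb from ERAP1, which encodes an aminopeptidase of the endoplasmic reticulum (CTR fold 14.9, p63 fold 22.1) and to the promoters of KIFAP3 (14.2 and 21.0), PRECSIT (8.31 and 12.2), MTMR12 (11.5 and 16.9) and FSD1L (11.4 and 16.8). The lowest ratio belonged to a promoter region 2.318 kb from the TSS of CTPS1, which encodes CTP synthase (CTR fold 17.5, p63 fold 11.4). Next came a gene-body region 4.221 kb from TMEM40 (14.5 and 9.82) and an intergenic region 17.259 kb from CD9, which encodes a tetraspanin (10.7 and 7.43). The promoter of PFKFB4, which encodes a regulator of glycolysis (11.5 and 8.41), and a gene-body region 34844 bp from SH3PXD2A-AS1 (15.4 and 11.7) followed. Since the rule used these values and the lists give no replicate spread, neither the closeness of the values nor the extremes can be read as a result.

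**Figure D1:**
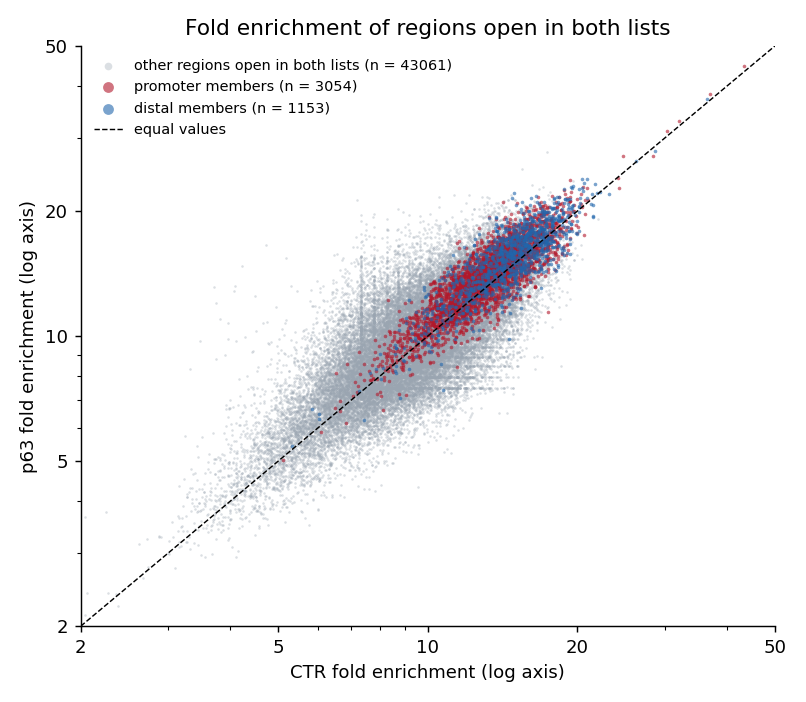
Fold enrichment of the regions open in both lists, CTR on the x axis and p63 on the y axis, both on log axes. Each point is 1 region: 3054 promoter members (red), 1153 distal members (blue) and 43061 other shared regions (grey). The members lie along the line of equal values, at a median of 13.6 in CTR and 14.3 in p63.

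The position of the summits, which the rule did not use, also differed little between the lists. The CTR and p63 summits of a member lay 27 bp apart in the median (quartiles 2 and 69 bp), as against 35 bp for other shared regions (quartiles 7 and 71 bp). They fell within 10 bp of each other in 39.6% of members (95% Wilson interval 38.2 to 41.1, counting error only, as for all intervals below) and in 30.1% of other shared regions (29.6 to 30.5). Members were also wider, with a median of 914 bp against 590 bp. The widest were a region of 3105 bp and another of 2535 bp on the short arm of chromosome 21, both closest to a Y RNA gene, followed by the promoters at SP3 (2460 bp), which encodes a GC-box binding factor, LNPEP (2229 bp) and TBC1D17 (2206 bp).

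Members were mostly promoters. The summit lay within 3 kb of an annotated TSS in 3054 members (72.6%, 71.2 to 73.9), in a gene body in 711 (16.9%) and between genes in 442 (10.5%). Among the other shared regions the promoter share was 40.7% (40.2 to 41.1), with 37.0% in gene bodies and 22.3% between genes. Within the promoter members the summit was close to the TSS, at a median distance of 82.5 bp against 169 bp for other shared promoters, and 84.1% were within 250 bp against 56.4%. It lay upstream of the TSS in 63.2% of promoter members and in 55.4% of other shared promoters. The nearest TSS belonged to a protein-coding gene for 79.9% of promoter members and to a lncRNA gene for 15.8%.

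The promoter members were rich in CpG. Within 250 bp of the summit, 81.4% of promoter members (80.02 to 82.8) had a GC content of at least 50% together with an observed/expected CpG ratio of at least 0.6, as against 48.7% of other shared promoters (48.0 to 49.5). Among distal members, meaning all members outside promoters, the share was 6.94% (5.61 to 8.55) against 2.57% of other shared distal regions. GC content moved with the promoter share: among members with a GC content between 40 and 50%, 25.7% were promoters against 22.7% of other shared regions, between 50 and 60% these values were 67.2% and 44.2%, and from 70% upwards they were 96.9% and 95.6%. The 69 members with a GC content under 40% gave 27.5% against 17.7%. The difference between members and other shared regions was thus widest between 50 and 60% GC and smallest from 70% upwards.

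The same features changed by steps along the CTR −log10 q of all shared regions, without a break at the threshold of 60. The promoter share was 31.6% at a −log10 q of 10 to 20, 56.9% at 40 to 60, 67.4% at 60 to 80 and 80.2% at 100 or more. The NFY motif was present in 2.26% of promoters in the lowest of these ranges and in 17.6% in the highest. The AP-1 motif went the other way in promoters, from 20.9% to 5.04%. In distal regions AP-1 was found in 31.5% at 10 to 20 and in 45.7% at 80 to 100, and then in 34.1% of the 88 distal regions at 100 or more, while the CTCF motif was found in 13.6% at 10 to 20 and in 3.67% at 60 to 80.

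**Figure D2:**
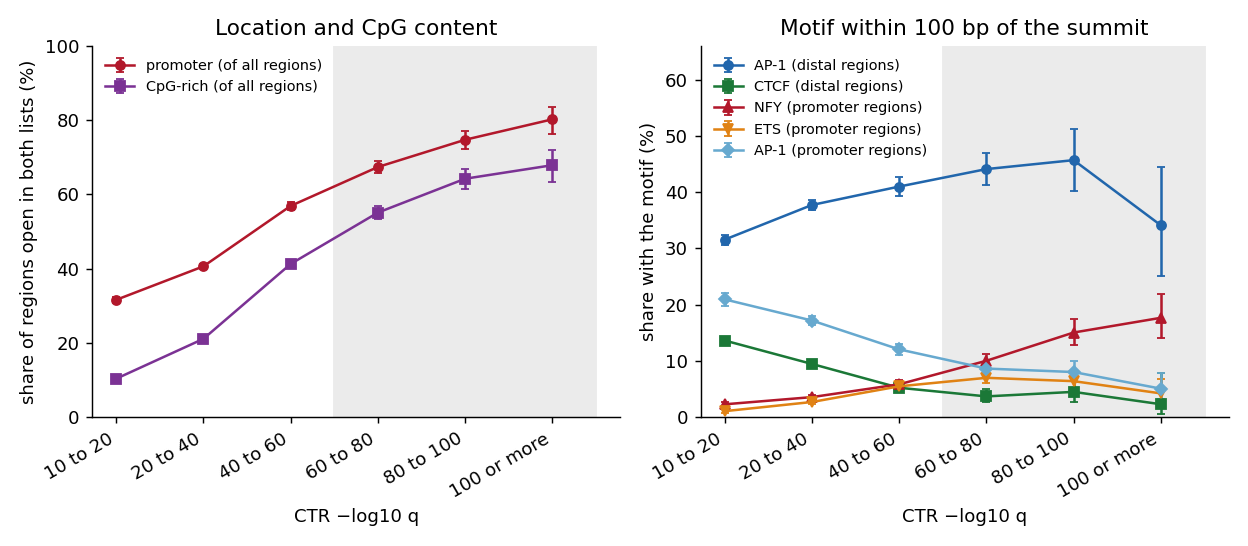
Features of the regions open in both lists by range of CTR −log10 q (x axis), with 95% Wilson intervals and the ranges past the threshold of 60 shaded. The left panel gives the share (%) of promoter and CpG-rich regions, and the right panel gives the share (%) with a motif within 100 bp of the summit: the promoter share runs from 31.6% to 80.2%, and NFY in promoters from 2.26% to 17.6%.

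Motifs were searched as exact words on both strands within 100 bp of the CTR summit: CCAATCA (NFY), CCGGAAGT (ETS), CGCATGCG (NRF1), TGACGTCA (CRE), GGGCGGGG (GC box), TGAGTCA (AP-1), ACATTCC (TEAD) and TGTGGTT (RUNX). Promoter members carried the words of most general activators searched more often than other shared promoters. NFY, a trimeric factor that binds CCAAT boxes, was found in 402 of 3054 promoter members (13.2%, 12.01 to 14.4), in 3.83% of other shared promoters (4.58% after weighting these to the GC content of the members) and in 1.93% of windows 2 kb to either side of the members. For ETS the shares were 6.32%, 3.08% and 0.147%, for NRF1, an activator of genes for mitochondrial function, 3.67%, 1.44% and 0.0164%, and for CRE, bound by CREB and ATF factors, 2.91%, 1.399% and 0.115%. The GC box was found in 22.1% against 16.9%. The NFY and ETS shares were higher in promoter members than in other shared promoters on 21 and 22 of the 22 autosomes.

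Other words were scarcer in the promoter members. AP-1 was found in 8.06% (7.14 to 9.07) against 16.7% of other shared promoters (12.6% after GC weighting), with the same direction on 22 of 22 autosomes, and CTCF in 3.41% against 8.59%. TEAD was found in 2.36% against 4.07% and RUNX in 2.23% against 4.24%. The CACCC box GGGTGTGG, a word bound by KLF factors and so of interest in cells that all express KLF4, was found in 1.96% (1.53 to 2.52) against 2.70% (2.47 to 2.95), and in 2.52% of the flanking windows. It does not stand for all sites of SP/KLF factors, since the GC box was more frequent in promoter members (22.1% against 16.9%).

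The promoter words found near the summits lay mostly upstream of the TSS, over wide and overlapping ranges. Among the 2389 promoter members within 1 kb of the canonical TSS of a protein-coding gene, 428 NFY words had a median position of −118.5 bp (negative values lie upstream of the TSS), with quartiles at −201.25 and −67 bp, and 96.7% were upstream of the TSS. The ETS words had a median of −45.5 bp (quartiles −165.25 and −11.25 bp), those of NRF1 −53 bp (−157 and −11.5 bp), those of CRE −82 bp (−152 and −43.5 bp) and the GC boxes −116.5 bp (−193.75 and −44 bp). Only words within 100 bp of a summit were counted, and these summits themselves lay close to the TSS. Around the summit of promoter members, NFY was 13.3 times denser within 50 bp than at 400 to 500 bp, as against 2.82 times in other shared promoters, while ETS gave 10.4 and 10.2 times. The like ETS ratios hide different profiles closer in. In members the ETS density was 40.9 and 26.2 words per kb per 100 regions in the bins centred at −30 and 30 bp. It was 22.9 and 26.2 at −190 and 190 bp. In other shared promoters it fell from 19.1 and 16.8 to 3.997 and 3.43. ETS words were thus spread more widely around the summits of members.

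Of the words searched, that of AP-1, the dimer of JUN and FOS proteins, was the most frequent in distal members. It was found in 514 of 1153 distal members (44.6%, 41.7 to 47.5), in 35.6% of other shared distal regions (34.1% after GC weighting) and in 3.30% of flanking windows. It was higher in members on 17 of 22 autosomes. With a −log10 q of at least 100 in both lists, 31.7% of 63 distal members and 36.0% of other shared distal regions had the word. The interval of these members holds 36.0%, so a change of direction could not be told from so few regions. Of the 46 of these members with unique summits, 39.1% (26.4 to 53.5) had the word. At least 2 AP-1 words were present in 8.50% of distal members (7.02 to 10.3) and in 4.10% of other shared distal regions. TEAD was found in 9.37% (7.82 to 11.2) against 7.78% and RUNX in 8.67% (7.18 to 10.4) against 8.06%, and the interval of RUNX in members holds the value of the other regions. CTCF was found in 3.47% (2.56 to 4.69) against 10.6%, lower in members on 21 of 22 autosomes. The ETS word, found in 6.32% of promoter members, was present in 2 distal members (0.173%, 0.0476 to 0.630). It was as rare in other shared distal regions (0.270%), a value that this interval holds.

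**Figure D3:**
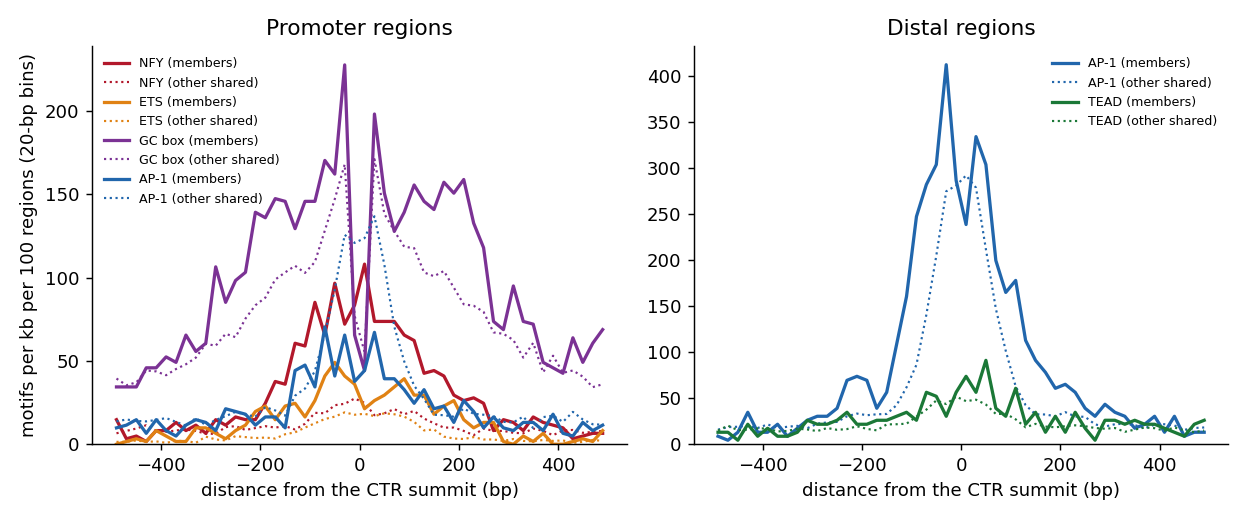
Density of motif words by distance from the CTR summit (x axis, bp, in 20-bp bins), as words per kb per 100 regions (y axis), for members (solid lines) and other shared regions (dotted lines), in promoter regions (left) and distal regions (right). NFY peaks on the summits of promoter members and stays low in other shared promoters, and AP-1 peaks on distal summits in both. The GC box dips to 44.2 in the bin just right of the promoter summits, between 228 and 198 in the bins centred 30 bp to either side.

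The p63 family site was rare among members. With its core bases fixed and at most 3 other mismatches, it was found in 32 of 4207 members (0.761%, 0.539 to 1.07), in 1.04% of other shared regions and in 1.18% of the windows 2 kb away. The 32 members with a site had a median p63/CTR ratio of fold enrichment of 1.05 (quartiles 1.001 and 1.13), as had the 4175 members without (0.984 and 1.13). The rule used the values of this ratio and so fixed much of this likeness, which cannot be read as a result about the site. The fewest mismatches were 1, in the LCA5 region printed above (CTR fold 20.4, p63 fold 23.9) and at the promoter of TTC8, a gene of the BBSome (17.1 and 17.4). Next, with 2 mismatches, came the promoter of PPP2R1A, a phosphatase scaffold (10.2 and 11.5), a gene-body region 25.387 kb from ELK3, a gene of the ETS family (14.9 and 14.8) and the promoter of ABCB9 (12.7 and 15.3). No member lay within 50 kb of a TSS of TP63, KLF4, KRT14, which encodes a basal keratin, or DSP, which encodes desmoplakin. Near them lay 3, 4, 6 and 7 regions open in both lists. Members made up 4207 of all 47268 such regions, so their absence among so few cannot be read as a result about these genes.

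Members at gene promoters were counted over all genes and over lists of genes. Of 19970 protein-coding genes, 3364 had a member summit within 3 kb of a TSS (16.8%), and of 18756 lncRNA genes 1049 had one (5.59%). Any shared region was present at 67.4% of protein-coding genes and at 32.4% of lncRNA genes. The lists were set beside the 16.8% as counts, without a test, and ran from well above it to below it. That share includes protein-coding genes without any shared region, which cannot have a member. It is thus a low mark for lists whose genes nearly all have a shared region, and a high mark for lists with few such genes. Splicing factors had members at 24 of 40 genes (60%, 44.6 to 73.7), among them SNRPD2 (CTR fold 12.3, p63 fold 10.4) and SNRPA (12.6 and 13.2), which encode snRNP proteins, SF3A3 (17.4 and 16.5) and HNRNPC (13.9 and 17.4). Chaperones had them at 19 of 32 genes (59.4%, 42.3 to 74.5), with HSPA8 (11.7 and 12.2), CCT3 (14.6 and 16.1), HSPA5 (13.1 and 12.3) and STIP1 (9.43 and 10.3) leading by −log10 q.

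Of the remaining lists of basic cell functions, 4 had intervals above 16.8%, a low mark for such lists as stated above, and 3 had intervals that held it. Aminoacyl-tRNA synthetases had members at 9 of 20 genes (45.0%, 25.8 to 65.8), led by LARS1, TARS1, NARS1 and IARS1. DNA replication genes had them at 13 of 34 (38.2%, 23.9 to 55.0), led by MCM3, a subunit of the replicative helicase (CTR fold 15.5, p63 fold 19.7), RPA3, ORC6 and PRIM2. Cytosolic ribosomal proteins had them at 30 of 79 (37.97%, 28.1 to 49.0), among them RPL27 (17.3 and 19.7), RPL36 and RPS19, and proteasome subunits at 11 of 31 (35.5%, 21.1 to 53.1), led by PSMB5 (18.0 and 15.97), PSMD1, PSMD3 and PSMA5. The small nucleolar RNA host genes, with 5 of 15 (ZFAS1, SNHG29, SNHG5, SNHG15 and SNHG1, 15.2 to 58.3%), could not be told from the 16.8% of protein-coding genes. Nor could RNA polymerase II subunits, with 1 of 12, POLR2I (8.33%, 1.49 to 35.4, folds 10.1 and 11.6), or lysosomal genes, with 4 of 29, ATP6V0D1, NPC1, CTSL and SCARB2 (13.8%, 5.497 to 30.6). The latter 2 shares lay below 16.8%. The host genes named are lncRNA genes, and the interval of their list lies above the 5.59% of all lncRNA genes with a member. In each of these lists all genes but at most 1 had a region open in both lists, so the lists differed in how strong the regions were.

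Nearly all fibroblast identity genes had a region open in both lists at their promoter, and few had a member there. Distal members were not counted over these lists. For example, FBN1 was also the nearest protein-coding gene of 3 distal members with unique summits. Of 30 fibroblast matrix genes, 29 had a shared region at their promoter and 1 had a member (3.33%, 0.591 to 16.7, an upper limit close to the background of 16.8%), FBN1, which encodes fibrillin (CTR fold 12.55, p63 fold 9.82). Of 30 mesenchymal transcription factor genes, 27 had a shared region and 3 had a member (10%, 3.46 to 25.6, an interval that holds 16.8%): NFIC (15.6 and 17.0), SNAI2 (11.5 and 12.9) and TEAD1 (11.8 and 13.2). The actin cytoskeleton and focal adhesion list, used by many adherent cells, had members at 9 of 36 genes (25%, 13.8 to 41.1), led by the integrin genes ITGA5 (14.5 and 14.2) and ITGB1 (10.8 and 11.9), MYH9 and CALD1. Immediate-early genes had them at 7 of 28 (25%, 12.7 to 43.4), led by JUN, a subunit of AP-1 (8.81 and 9.52), MCL1, ATF3 and EGR2. Both of these intervals hold 16.8% as well.

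Markers of other cell types seldom had members, and apart from the haematopoietic list their shares could not be told from the 16.8% of all protein-coding genes. Of 25 haematopoietic genes none had a member (upper limit 13.3%) and 6 had a shared region, and of 25 hepatocyte genes 1 had a member (0.710 to 19.5%), APOA2, whose member lay 2275 bp from its TSS and was closer to that of TOMM40L (13.1 and 14.3). Of 25 neuronal genes 2 had a member (2.22 to 24.97%), DLG2, where the nearest TSS was that of TMEM126B (12.1 and 12.6), and SLC17A7, at 1270 bp (10.6 and 13.1). Of 39 keratinocyte genes 18 had a shared region and 3 had a member (7.69%, 2.65 to 20.3), all over 2 kb from the TSS: SFN, which encodes 14-3-3 sigma (2065 bp, folds 12.99 and 12.4), the transglutaminase gene TGM3 (2248 bp, 12.4 and 15.4) and IVL, which encodes involucrin (2279 bp, 12.2 and 12.4). In the control list, from cells without ΔNp63α, the fold enrichment of these 3 regions lay between the lower quartile (11.9) and the median (13.6) of all members.

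**Figure D4:**
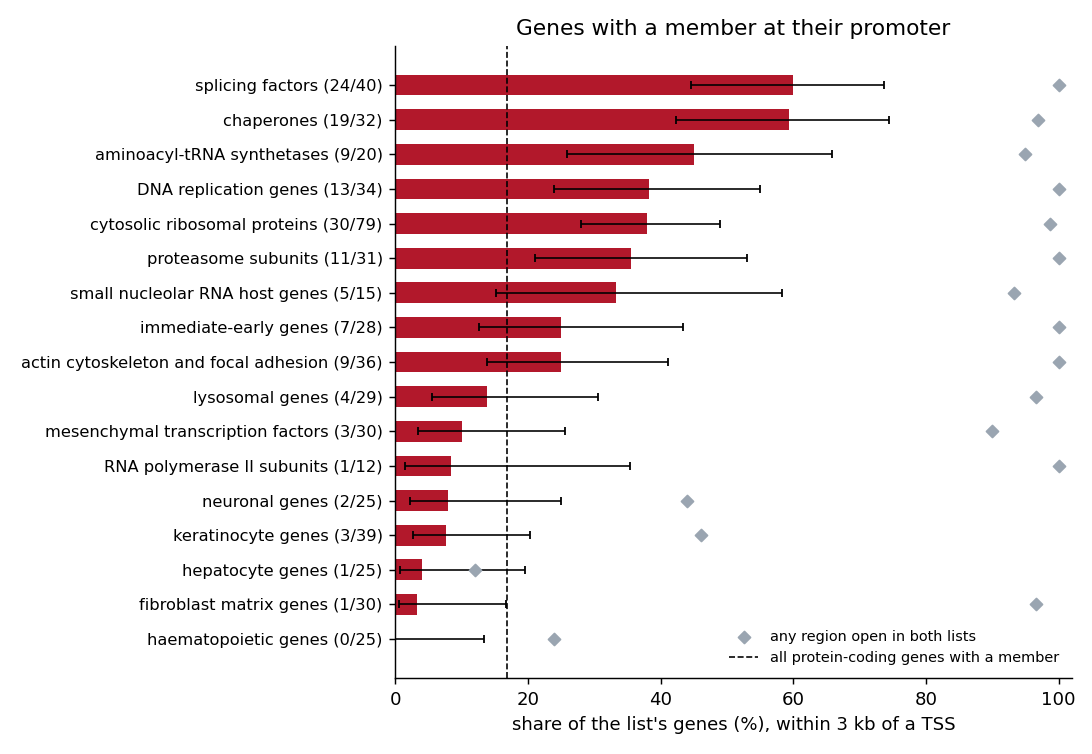
Share (%) of the genes of each list with a member summit within 3 kb of a TSS (red bars, 95% Wilson intervals, counts in parentheses) and with any region open in both lists (grey diamonds). The dashed line is the share of all protein-coding genes with a member, 16.8%, which also counts genes without any shared region. Splicing factors and chaperones reach 60% and 59.4%, and fibroblast matrix genes 3.33%, although nearly all genes of these lists have a shared region.

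Promoters that serve a divergent pair of genes were often members. Of 984 pairs of protein-coding genes arranged head to head with canonical TSSs at most 1 kb apart, 364 (37.0%, 34.0 to 40.1) had both TSSs inside 1 member. Of the 1895 genes in such pairs, 38.8% (36.6 to 41.0) had a member within 3 kb, as against 14.5% (14.0 to 15.1) of the other 18075 protein-coding genes. A shared region was present at 95.7% and 64.5% of these genes.

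The members with the highest −log10 q were of a special kind. Ranked by CTR −log10 q, 10 of the top 20 members matched the mitochondrial genome and 17 of 20 either did so or had a summit whose 31 bases occur more than once. The top 5 promoter members were all of this kind, among them those at MTCYBP13 (CTR −log10 q 2415, fold 43.4), at ENSG00000289901 (2252, fold 36.9), near MIR4485 (1785, fold 19.2) and at MTND5P11 (829, fold 14.2), with identities to the mitochondrial genome between 84.8 and 100%. The next 5 included a U2 small nuclear RNA gene on chromosome 17 (618), MTND5P11 again (439), RASA4 (438) and MTATP8P2 (224). The top 10 distal members included a region at RASA4B (393), a copy of the RASA4 gene, 3 regions nearest to EMB (251, 223 and 215) and a region nearest to PLEKHG4B at an end of chromosome 5 (240), all with repeated summits, and a region nearest to ST6GALNAC5 that matches mitochondrial DNA (230). The remaining 4 lay nearest to PROS1 (402), ZNF33B (335), RPIA (210) and CWH43 (155), the latter 2 with repeated summits. In all, 15 members (0.357%, 0.216 to 0.587) and 6 other shared regions (0.0139%) matched the mitochondrial genome, and 155 members (3.68%) and 4.74% of other shared regions had a repeated summit. Whether reads from mitochondrial DNA or from other copies were placed in these regions was not tested. Without them 4046 members were left, of which 73.0% were promoters.

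Among members with a unique summit, chosen after the values had been seen, the strongest promoters included those of several small RNA genes. The U2 gene at chr17:43251480-43252324 led with a CTR fold of 24.7 and a p63 fold of 27.1, and RNU1-1, a U1 gene of chromosome 1, had 10.4 and 11.3, but both genes have near-identical copies elsewhere in the genome. VTRNA1-2, a vault RNA gene (chr5:140718629-140719298), had 20.7 and 21.3. SEC23B, a coat protein of vesicles leaving the endoplasmic reticulum (chr20:18507216-18508148), had 19.6 and 20.1, RAB5B, a GTPase of early endosomes, had 13.1 and 12.9, and SACM1L, a phosphoinositide phosphatase whose promoter is shared with LIMD1-AS1, had 16.3 and 14.3. POLR2J3 had 13.8 and 10.9, CREB3L2 11.6 and 13.005, BCAS3 16.5 and 18.4, and IFT27, a protein of intraflagellar transport, 17.8 and 17.4. The POLR2J3 region lies on chromosome 7 between the members at RASA4B and RASA4, whose summits are repeated. A summit found once does not show that the rest of a region is unique.

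The distal members had a median CTR fold enrichment of 14.7, against 13.2 in promoter members, and lay 26.0 kb from the nearest protein-coding TSS in the median, close to the 27.4 kb of other shared distal regions. They lay in genes in 61.7% of cases, against 62.4%, and in exons in 3.56%, against 3.66%. With unique summits, the strongest by CTR −log10 q were the regions nearest to PROS1 (CTR fold 26.3, p63 fold 26.4) and ZNF33B (22.2 and 22.2). Next came the TMEM219 region printed above (17.1 and 15.96), a region 289.721 kb from NFE2L3 (14.0 and 15.9) and a region nearest to GLDC (15.3 and 12.6). A region 92.69 kb from PARD3B (20.01 and 17.6) and a region 72.437 kb from BACH2 (18.1 and 19.9) followed. Distal members stood mostly alone: joined across gaps of just over 12 kb they formed 1134 groups (1151 at 5 kb and 1114 at 25 kb), of which 1115 held 1 member, 19 held 2 and none held more. The 3 leading pairs lay in repeated sequence near RASA4B, EMB and CWH43, and the next were a pair nearest to SHANK2 (spanning 13.074 kb) and a pair in SH3PXD2A, which encodes a scaffold of podosomes (9.892 kb). By nearest protein-coding gene, 17 genes had at least 3 distal members with unique summits. USP24 had 4, and of the 16 with 3, those with the highest −log10 q were ATP10A, SH3PXD2A, OPTC and PRAG1. These genes were named after the values had been seen.

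Members were nearly absent from the X chromosome. They made up 6 of 874 shared regions there (0.686%, 0.315 to 1.49), as against 9.06% of the 46394 on autosomes, where the share ran from 6.56% on chromosome 13 to 16.1% (14.5 to 17.9) on chromosome 19, the chromosome with the highest promoter share (68.3%). The X was not poor in promoters, which made up 52.9% of its shared regions against 43.3% on autosomes, and its median CTR fold enrichment was 9.78 against 9.91. Its median −log10 q was lower, with 21.9 against 26.5 for CTR and 23.05 against 27.9 for p63, a value that the rule used and that is given as a description. The low share of members thus cannot be read as a trait of X chromatin. Foreskin fibroblasts are male cells, and whether the number of X copies bears on the share was not tested. The 6 X members were at TSPYL2, C1GALT1C1, a gene next to PPP1R3F, an intergenic region 109.404 kb from GNL3L, and the repeated or mitochondrial-like sequences at DDX11L16 and MTND4LP1.

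**Figure D5:**
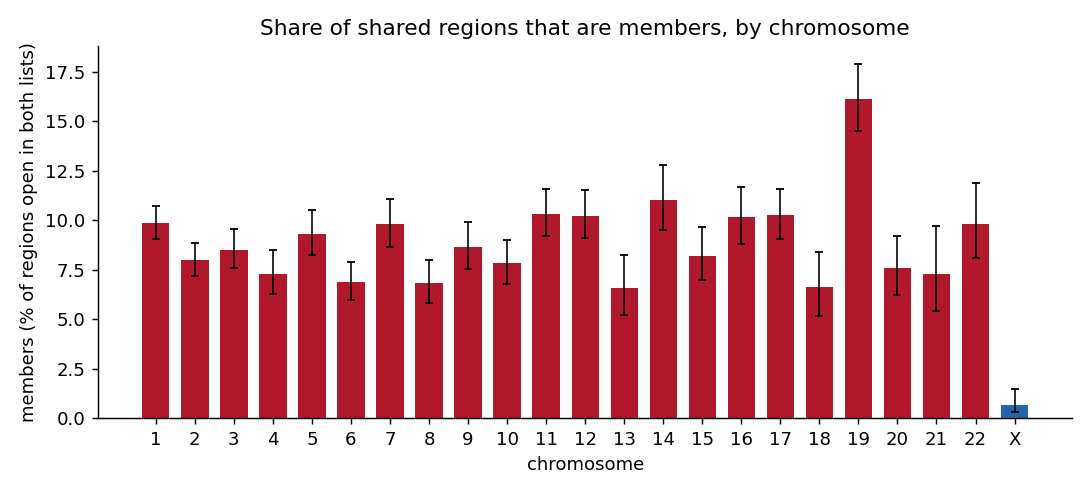
Members as a share (%) of the regions open in both lists on each chromosome, with 95% Wilson intervals. Autosomes are red and the X chromosome is blue. The X lies at 0.686%, chromosome 19 at 16.1%, and the remaining autosomes between 6.56% and 11.02%.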

How the data were processed

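The authors mapped ATAC-seq reads of 2 CTR and 2 p63 samples to hg38 (Bowtie2 2.3.4.3 and MACS2, per the submitters' processing notes) and, as the methods state, called peaks from both replicates of a condition. The peak names do not show whether the paired inputs of each list are replicates or read mates. The 2 deposited lists give per peak a fold enrichment (ratio), a −log10 q and the summit offset in bp. The score and −log10 p columns deposited beside them were not used. The MACS2 version and options, duplicate removal, read shifting for the transposase and any list of excluded regions are not given in the sources used here, and the number of reads per library is unknown. Multi-mapping, mitochondrial-like and repeated regions therefore remain in the lists.

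The members, the gene lists and the rule for the named regions were chosen with earlier results of these data known. Named were the 10 strongest promoter and distal members by CTR −log10 q, the 5 extremes of the ratio, the leading groups of distal members, up to 4 genes of each list, the members closest to the p63 site, those at the thresholds, the widest and the study's genes. The strongest members with unique summits were added after their values had been seen. A few members that these rules name are not reported here.

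Summits were placed in GENCODE 44 on hg38, with coordinates 1-based. Sequence was read with pysam 0.24.0. The p63 site (20 letters, at most 3 mismatches) and the CTCF motif (13 letters, at most 1 mismatch) were scored on both strands and the other motifs as exact words. A summit was called repeated when its 31 bases occurred more than once in chromosomes 1 to 22, X and Y, and mitochondrial-like when BLAST 2.17.0 aligned at least 100 bp at 80% identity or more. Intervals are 95% Wilson intervals (scipy 1.17.1). No p-value is given over peaks, since these do not replicate a condition. The overlap and motif code was tested on simulated data. Alternatives were other thresholds, overlaps, windows, mismatch limits and joining distances, the p63 list as the base, and, added later, members without repeated or mitochondrial-like sequence.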

Additional observations from a re-analysis of the deposited data

Results flagged for a closer look

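Signal past the same thresholds was present outside the chromosomes described. On other sequences of the reference, 37 CTR peaks and 45 p63 peaks had a −log10 q of at least 60 and a fold enrichment of at least 5, and 30 of the CTR regions overlapped such a p63 region. Of these, 22 lay on unplaced or unlocalized sequences and 5 on alternate sequences, and their CTR fold enrichment ran from 5.25 to 24.7. They were flagged because they belong to no comparison above.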

How the results depend on the processing

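No paired analysis was possible because the lists hold no value per replicate. Of 110 values recomputed for 13 results under 17 settings, 72 stayed within the interval of the value given above (counts and medians: within 1.5 times) and 38 did not. A −log10 q of at least 40 gave 11020 members, 64.9% promoters, 51.4% CpG-rich, 36.1% of protein-coding genes, NFY in 9.13% and AP-1 in 9.83% of promoter members, CTCF in 4.91% of distal members and 3697 groups of distal members. A −log10 q of at least 100 gave 351 members (52 of them repeated or mitochondrial-like), 82.1% promoters, 71.5% CpG-rich, 1.61% of genes, NFY in 19.1%, ETS in 4.86% and AP-1 in 2.78% of promoter members, AP-1 in 31.7% and CTCF in 1.59% of distal members, the p63 site in 0.0%, summits 12 bp apart and 62 groups. There the value of AP-1 in distal members was below that of the other shared regions (36.0%), unlike at 60. It rests on 20 of 63 regions, and its interval holds 36.0%, so a change of direction could not be told. Of the 46 with unique summits, 18 (39.1%, 26.4 to 53.5) had the word. The other 7 shares compared with the other shared regions under these settings (promoter, CpG-rich, NFY, ETS and AP-1 in promoter members, CTCF in distal members, and the p63 site) kept their direction in each setting run for them. The shares of TEAD, RUNX, NRF1, CRE, GC box, CACCC, YY1 and octamer words were not recomputed. A promoter window of 1 kb gave 67.6% promoters and 15.97% of genes, TSSs of protein-coding genes alone 64.4%, and CpG content within 100 bp 58.4%. With motif windows of 50 and 250 bp, NFY was found in 7.33 and 20.4%, ETS in 2.88 and 11.3% and AP-1 in 4.45 and 12.7% of promoter members, and AP-1 in 27.7 and 56.5% and CTCF in 2.43 and 7.03% of distal members. The p63 site was found in 3.21% with 4 mismatches, 0.190% with 2 and 2.16% within 250 bp. With the p63 list as the base, ETS was found in 5.46% of promoter members. The other thresholds on fold enrichment, 50% overlap, the joining distances and the removal of repeated regions, chosen after seeing the data, moved no value out of its interval. The lists give no spread between replicates, and the depth of the libraries is unknown.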
